A study of Mus musculus with 15 samples.

Results

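The change in gene expression that followed loss of Dlx5/6 in the mandibular branch of the mouse first branchial arch was compared with the change in a KO of the maxillary branch. The comparison used 12 of the 15 arrays of the series, 3 in each of 4 of its 5 groups, and those arrays were taken by their titles. The Dlx5/6 effect was the Dlx5/6 mutant mandibular group (5_6_MNA) minus the wild-type mandibular group (WT_MNA). The KO effect was the KO maxillary group (KO_MXA) minus the wild-type maxillary group WT_MXA2, and the difference of the effects was the Dlx5/6 effect minus the KO effect. All tissue was from E10.5 embryos. The labels gave no strain, no allele and no sex, and they did not name the gene lost in the KO. Their common description was a plan that listed dlx2, dlx1/2 and Dlx5/6 mutants and foresaw about 10 arches for an experiment. Nothing in the labels said what separated the 3 arrays of a group, neither animals nor pools, and the p-values thus measure only how far these arrays spread, which may be technical.

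The groups came from array sets that stood apart. The dap spike-in control, which is RNA added during labelling and not mouse RNA, read 287 to 339.7 on the mandibular arrays and 2564 to 2821 on the KO_MXA and WT_MXA2 arrays. Each effect therefore lay inside 1 array set, but in the difference of the effects the mutation, the branch and the array set cannot be told apart. Within the mandibular set, dap read 287, 305 and 299.7 in WT_MNA and 336.9, 339.7 and 323.8 in 5_6_MNA, without overlap. Whether the handling of these groups differed in a way that reached the Dlx5/6 effect was not tested. Median signals ran from 26.63 to 33.45, and each array correlated at 0.9836 to 0.9903 with the others of its group. Signals are the deposited intensity, which has no physical unit. Changes are in log2(signal + 32) after quantile normalization, so that a change of 1 is close to 2-fold for bright genes and understates the change of dim ones. A gene was called when its limma p-value, adjusted over all probe sets, was under 0.05. In these bulk samples, fewer cells of a type and less RNA per cell cannot be told apart.

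Dlx genes encode homeodomain transcription factors that lie in the genome as linked pairs. In the arch, Dlx1 and Dlx2 are active in neural crest mesenchyme of both branches, whereas Dlx5 and Dlx6 are active mainly in the mandibular branch, downstream of endothelin signalling. Mouse embryos without Dlx5 and Dlx6 are known for a lower jaw that takes on the form of an upper jaw, and embryos without Dlx2, or Dlx1 and Dlx2, for defects of the upper jaw skeleton and molars. Dlx proteins bind DNA at sites built on the core TAAT.

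The 250 bases before the annotated start are shown for 2 genes that the mutants changed in opposite directions, Pou3f3 and Shisa3, and 2 that they changed alike, Cyp26a1 and Shox2. The sequences are those of RefSeq on build GRCm38.p6, 5′ to 3′ on the gene's strand, at chr1:42695518-42695767 (plus), chr5:67607633-67607882 (plus), chr19:37697558-37697807 (plus) and chr3:66981772-66982021 (minus). Capitals mark TAAT or its reverse complement ATTA, so that both strands are covered.
Pou3f3: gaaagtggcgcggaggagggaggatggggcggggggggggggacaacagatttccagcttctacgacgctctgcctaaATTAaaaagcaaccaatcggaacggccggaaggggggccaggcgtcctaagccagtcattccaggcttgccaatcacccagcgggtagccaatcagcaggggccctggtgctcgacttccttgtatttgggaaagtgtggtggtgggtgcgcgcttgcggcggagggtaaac
Shisa3: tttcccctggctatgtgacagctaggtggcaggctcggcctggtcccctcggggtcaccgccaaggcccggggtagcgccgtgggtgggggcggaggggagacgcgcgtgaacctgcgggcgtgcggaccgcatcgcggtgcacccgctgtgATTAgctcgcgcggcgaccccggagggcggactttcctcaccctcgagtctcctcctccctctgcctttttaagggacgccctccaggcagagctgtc
Cyp26a1: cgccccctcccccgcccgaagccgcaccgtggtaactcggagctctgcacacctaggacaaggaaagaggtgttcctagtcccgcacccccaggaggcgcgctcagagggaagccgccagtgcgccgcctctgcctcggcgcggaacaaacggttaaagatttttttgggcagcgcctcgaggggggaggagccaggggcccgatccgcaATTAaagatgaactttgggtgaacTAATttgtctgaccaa
Shox2: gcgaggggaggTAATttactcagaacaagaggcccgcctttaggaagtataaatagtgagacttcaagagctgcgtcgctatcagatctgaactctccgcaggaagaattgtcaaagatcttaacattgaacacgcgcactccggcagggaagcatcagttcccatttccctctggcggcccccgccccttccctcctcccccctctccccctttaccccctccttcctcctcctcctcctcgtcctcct
Cyp26a1 held 2 such matches and the other promoters shown held 1 each. At least 1 match lay in 54.9% of all 32851 promoters in the table, in 18 of 43 promoters of the genes changed alike (41.9%) and in 11 of 27 of the genes changed in opposite directions (40.7%). The shares were 45.3% for genes changed by Dlx5/6 loss only and 39% for genes changed by the KO only. The share over all promoters covers 27025 genes, tested or not, and none was taken over the genes tested. The lower shares of the classes therefore do not show a shortage of such matches in them. The longer core TAATTA, which contains both shorter forms, lay in 4.84% of all promoters, in 0 of 43 for genes changed alike and in 1 of 27, that of Asb4, for genes changed in opposite directions. Promoters were found for 34 of the 48 genes changed alike and for 16 of the 19 changed in opposite directions.

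Among 13934 genes tested, the Dlx5/6 effect called 440 (3.16%), 220 higher and 220 lower in the mutant. The KO effect called 175 (1.26%), 89 higher and 86 lower. The difference of the effects called 200 (1.44%), of which 95 were more positive and 105 more negative under Dlx5/6 loss. Both effects called 67 genes, which was 15.2% of the genes of the Dlx5/6 effect and 38.3% of those of the KO effect. Of these, 48 changed alike, 29 up and 19 down, and 19 changed in opposite directions. A further 119 genes changed under Dlx5/6 loss and differed between the effects without a KO call, and 41 did so for the KO without a Dlx5/6 call. Another 254 genes called for Dlx5/6 loss and 67 called for the KO had no call for the difference, so they were not shown to belong to 1 mutant only. Over all genes tested, the effects, which share no array, had the same sign in 54.1% of genes, with a Pearson r of 0.104 across genes, which are not independent replicates.

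The counts depended on single arrays. In probe sets, the difference called 346 (1.09%), 167 more positive (0.528%) and 179 more negative (0.566%) under Dlx5/6 loss, and at least 261 with any 1 array left out. The Dlx5/6 effect called 841 (2.66%), 445 higher (1.41%) and 396 lower (1.25%), and 499 without 5_6_MNA replicate 2 and 520 without replicate 3. The KO effect called 289 probe sets (0.913%), 147 higher (0.465%) and 142 lower (0.449%), and 175, 179 and 187 without WT_MXA2 replicate 1, WT_MXA2 replicate 3 and KO_MXA replicate 2. The 48 genes changed alike became 31 without KO_MXA replicate 3, WT_MXA2 replicate 1 or WT_MXA2 replicate 3. The 41 genes of the KO only became 25 without KO_MXA replicate 1 or WT_MXA2 replicate 1, and 27 without WT_MXA2 replicate 3. The 19 genes changed in opposite directions stayed between 16 and 19 in number. In all 12 fits that left out an array, 20 of the 48 alike genes, 12 of the 19 opposite genes, 70 of the 119 Dlx5/6-only genes and 17 of the 41 KO-only genes kept their class.

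**Figure D1:**
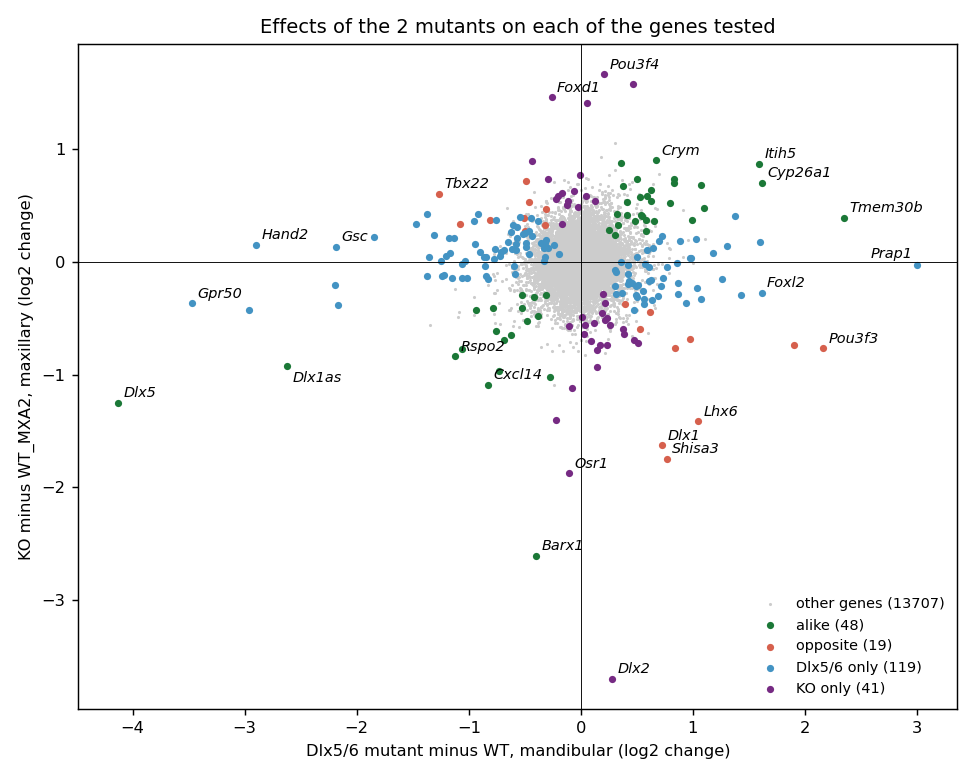
Each point is 1 of 13934 genes, with its log2 change under Dlx5/6 loss in the mandibular branch on the x axis and under the KO in the maxillary branch on the y axis. Colours mark the 48 genes changed alike, 19 changed in opposite directions, 119 of Dlx5/6 loss only and 41 of the KO only; Dlx5 lies farthest left at -4.13 and Dlx2 lowest at -3.70.

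The Dlx genes themselves were spread over all 4 classes. Dlx5, which is lost in the Dlx5/6 mutant, read 770.3, 721 and 689.9 in WT_MNA and 11.0, 13.9 and 7.96 in 5_6_MNA. In the maxillary groups it read 97.5, 109 and 145 in WT_MXA2 and 27.3, 39.3 and 33.9 in KO_MXA. Neither pair of groups overlapped. The changes were -4.13 ± 0.12 (SE; adjusted p = 4.29e-16) and -1.25 ± 0.12 (adjusted p = 1.37e-06), so Dlx5 fell in both mutants. The fall was larger under Dlx5/6 loss (difference -2.88 ± 0.17, adjusted p = 1.61e-10), but the starting levels fixed part of that difference. The mean log2 level of Dlx5 was 9.56 in WT_MNA and 7.22 in WT_MXA2. Even a complete loss of its signal in the KO would have been a smaller fall than that under Dlx5/6 loss. Dlx2 was near the bottom of the signal range in KO_MXA, at 3.21, 3.56 and 3.32, against 442, 421 and 402 in WT_MXA2. It read 319.8, 254 and 269 in WT_MNA and 347, 310.1 and 373 in 5_6_MNA, and these groups overlapped. The KO effect on Dlx2 was -3.70 ± 0.097 (adjusted p = 3.49e-17), the Dlx5/6 effect 0.28 ± 0.097 (adjusted p = 0.153) and the difference 3.98 ± 0.14 (adjusted p = 1.3e-14).

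Dlx1, the linked partner of Dlx2, rose from 481, 489.6 and 476 in WT_MNA to 776, 842 and 823 in 5_6_MNA. In the maxillary branch it fell from 701, 688 and 746 in WT_MXA2 to 206, 199 and 222 in KO_MXA. The changes were 0.72 ± 0.070 and -1.62 ± 0.070 (adjusted p = 4.33e-07 and 6.18e-13). Dlx1as, the antisense transcript of Dlx1, fell in both mutants, so that it had the sign of Dlx1 in the KO and the opposite sign under Dlx5/6 loss, with changes of -2.62 and -0.92 (adjusted p = 1.15e-10 and 0.00194). Dlx6 is the other gene lost in the Dlx5/6 mutant. Dlx6 (-2.96), its antisense transcript Dlx6os1 (-2.16) and Dlx3 (-1.37) fell under Dlx5/6 loss. Their KO changes of -0.43, -0.38 and -0.12 were not called. The difference was called for all 3 of them (adjusted p = 1.16e-06, 1.23e-05 and 0.00139). Dlx6 averaged 29.2 in WT_MXA2 and 15.6 in KO_MXA, and Dlx6os1 15.4 and 4.2. So near the bottom of the range, a fall in the KO had little room to show, and the missing KO calls do not show that these transcripts were unchanged. For Dlx4, which fell under Dlx5/6 loss (-1.03) and stood at 0.0065 in the KO, the called difference (-1.04) was lost without 5_6_MNA replicate 3, WT_MNA replicate 3, KO_MXA replicate 2 or WT_MXA2 replicate 3, with adjusted p from 0.0612 to 0.0694. In all, 7 of 8 Dlx transcripts were called for Dlx5/6 loss, 1 higher and 6 lower (1.58% of all genes each). The KO called 4 of 8 lower (0.617%), and the difference was called for all 8 (1.44%). These counts include Dlx5 and Dlx6, which the Dlx5/6 mutant lacks, and Dlx6os1 of the same locus. They therefore describe the members and do not measure a response of the family. The labels do not name the gene lost in the KO, and it may be counted here too.

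Of the 19 genes changed in opposite directions, 10 rose under Dlx5/6 loss and fell in the KO, against 1.58% of all genes called higher for Dlx5/6 loss and 0.617% called lower for the KO. Pou3f3, Pantr1, Shisa3, Lhx6 and Dlx1 had the largest differences of these 10. Pou3f3, a POU-domain transcription factor, read 207, 219.6 and 193 in WT_MNA and 1050.4, 946 and 1082 in 5_6_MNA. It read 869, 748 and 983 in WT_MXA2 and 505, 473 and 468 in KO_MXA. In deposited signal the mutant mandibular arrays were thus near the wild-type maxillary arrays, and the KO arrays lay between those and the wild-type mandibular arrays. Such comparisons of level between the branches also cross the array sets, and the part of the array set in them cannot be told apart. The changes were 2.16 ± 0.087 and -0.77 ± 0.087, and their difference was 2.93 ± 0.12 (adjusted p = 3.89e-13). Its other probe set moved by 0.59 and -0.41, neither of them called. Pantr1, a noncoding RNA transcribed next to Pou3f3, changed in parallel, by 1.90 and -0.74 (difference 2.64 ± 0.17, adjusted p = 8.03e-10).

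Lhx6, a LIM-homeodomain factor of the oral arch mesenchyme, read 185, 194 and 182 in WT_MNA and 368, 437 and 453 in 5_6_MNA. Its maxillary signals were 486, 405 and 466 in WT_MXA2 and 148, 152 and 152 in KO_MXA. All 3 mutant mandibular arrays were above wild type and all 3 KO arrays below it, with changes of 1.05 ± 0.088 and -1.42 ± 0.088 (difference 2.46 ± 0.12, adjusted p = 9.74e-12). A second Lhx6 probe set was called in the same directions, at 0.77 and -0.87. Shisa3, whose family restrains WNT and FGF receptors, read 42.4, 59.1 and 46.8 in WT_MNA and 95.6, 109 and 117 in 5_6_MNA. It read 215, 177 and 206 in WT_MXA2 and 32.2, 40.7 and 47.3 in KO_MXA. The KO arrays were near the level of the wild-type mandibular arrays, which are of the other array set. The Shisa3 changes were 0.77 ± 0.12 and -1.75 ± 0.12 (difference 2.51 ± 0.17, adjusted p = 2.08e-09), and its other probe set gave 0.40, which was not called, and -1.51, which was.

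The remaining genes of this direction changed less. The transcriptional repressor gene Zfp703 changed by 0.53 and -0.60, the noncoding AI506816 by 0.84 and -0.76 and the metallophosphoesterase gene Mpped2 by 0.61 and -0.44. A second Zfp703 probe set gave 0.28 and 0.20, neither called. Fibin, a secreted factor, changed by 0.97 and -0.68, and its KO call was lost without KO_MXA replicate 1 or WT_MXA2 replicate 1 or 2 (adjusted p from 0.0581 to 0.0816). The splicing factor gene Hnrnpl, at 0.39 and -0.37, lost its KO call in 8 of the 12 fits without an array and its Dlx5/6 call without 5_6_MNA replicate 3 (adjusted p = 0.063).

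**Figure D2:**
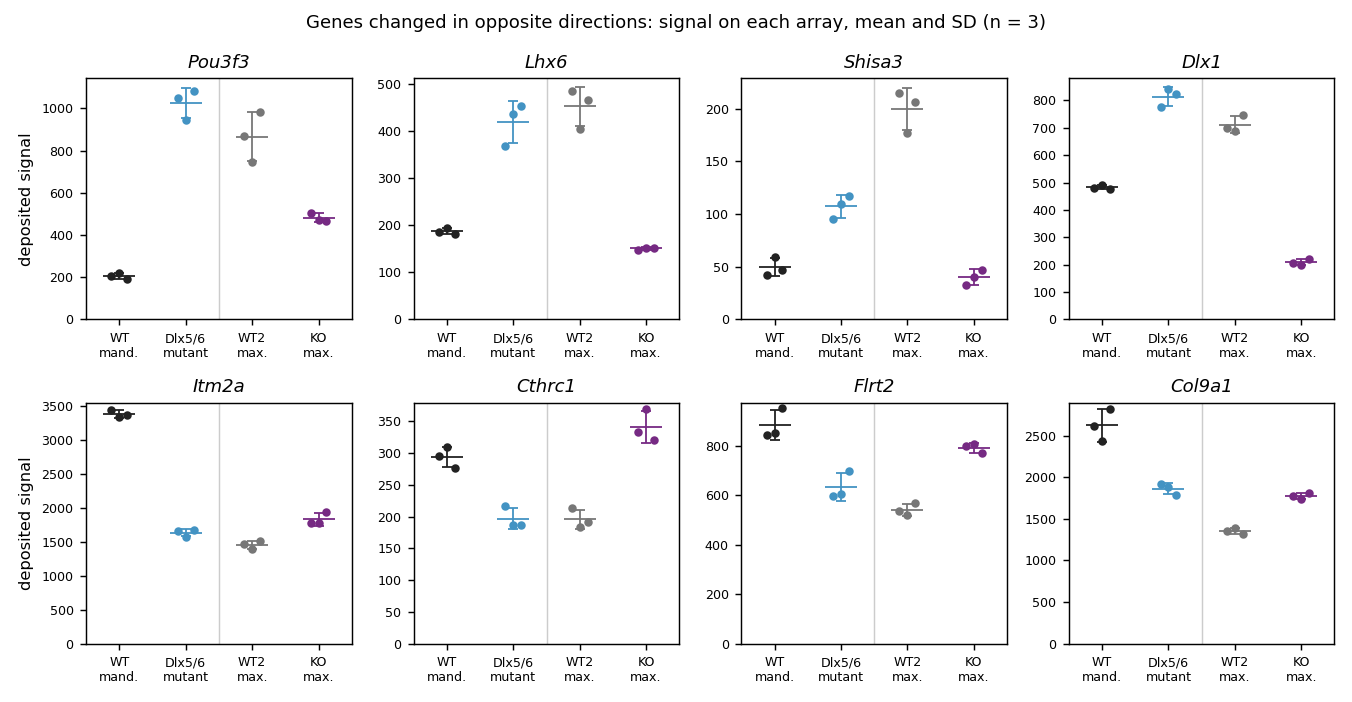
Deposited signal of 8 genes that changed in opposite directions, with 1 point per array and the mean and SD of the 3 arrays of each group; the vertical line parts the mandibular from the maxillary groups. In the upper row (Pou3f3, Lhx6, Shisa3, Dlx1) the Dlx5/6 mutant lies above its wild type and the KO below it, and in the lower row (Itm2a, Cthrc1, Flrt2, Col9a1) the order is turned.

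The other 9 genes fell under Dlx5/6 loss and rose in the KO (1.58% of all genes were called lower for Dlx5/6 loss and 0.639% higher for the KO). Itm2a, a membrane protein of differentiating cartilage, read 3444, 3334 and 3366 in WT_MNA and 1661, 1571 and 1671 in 5_6_MNA. It read 1466, 1397 and 1505 in WT_MXA2 and 1774, 1776 and 1945 in KO_MXA. The mandibular groups lay far apart and the maxillary groups closer but without overlap, with changes of -1.08 ± 0.057 and 0.34 ± 0.057 (difference -1.42 ± 0.080, adjusted p = 7.35e-11). A second Itm2a probe set was called in the same directions at -1.04 and 0.33. The KO call of Itm2a was lost with the arrays shifted to a common median (adjusted p = 0.076) and without the intensity trend (adjusted p = 0.0676). Cthrc1, a secreted collagen-repeat protein, read 295, 309 and 277 in WT_MNA and 216, 187 and 187 in 5_6_MNA. Its maxillary signals were 213, 184 and 191 in WT_MXA2 and 333, 369.7 and 321 in KO_MXA, a pattern of high, low, low and high across the 4 groups and both array sets. The changes were -0.49 ± 0.096 and 0.72 ± 0.096 (difference -1.21 ± 0.14, adjusted p = 6.5e-06). The adhesion gene Flrt2 changed by -0.46 and 0.53, and Col9a1, a chain of cartilage collagen IX, by -0.51 and 0.39. Their differences were -0.997 ± 0.10 and -0.90 ± 0.084 (adjusted p = 2.22e-06 and 3.96e-07).

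Tbx22, a T-box gene known from X-linked cleft palate, read 229.9, 204 and 249 in WT_MNA and 84.1, 67.0 and 67.8 in 5_6_MNA. It read 173, 137 and 160.3 in WT_MXA2 and 303, 225 and 243 in KO_MXA, with changes of -1.27 ± 0.12 and 0.60 ± 0.12 (difference -1.87 ± 0.18, adjusted p = 4.23e-07). Neither pair of groups overlapped, which held for all 19 genes changed in opposite directions. The KO call of Tbx22 was lost without KO_MXA replicate 1 or WT_MXA2 replicate 2 or 3 (adjusted p from 0.0516 to 0.11). Igf2, the imprinted growth factor, changed by -0.81 and 0.37. Its KO call was lost without KO_MXA replicate 2 (adjusted p = 0.0526) or WT_MXA2 replicate 2 (adjusted p = 0.0628), and with a common median (adjusted p = 0.0548). Its other probe set gave -0.34 and 0.34, neither called. Nnat (-0.32 and 0.33), the imprinted neuronatin gene, lost its KO call without KO_MXA replicate 3 (adjusted p = 0.0523) or WT_MXA2 replicate 3 (adjusted p = 0.0504), and with a common median (adjusted p = 0.125). The Dlx5/6 call of Nnat was lost with values as deposited (adjusted p = 0.252) and with a common median (adjusted p = 0.234). The KO call of Amot (-0.50 and 0.27), which encodes the junction protein angiomotin, was lost in 9 of 12 such fits and with a common median (adjusted p = 0.248). For Asb4 (-0.31 and 0.47) it was the Dlx5/6 call that was lost, without any 1 of the 6 mandibular arrays.

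Of 10 sensory neuron markers tested, Dlx5/6 loss called 2 higher (1.58% of all genes) and the KO called 3 lower (0.617%). The difference was called more positive under Dlx5/6 loss for 3 (0.682%) and more negative for 1 (0.754%). Called or not, 8 of the 10 values were positive under Dlx5/6 loss and 8 negative in the KO, with medians of 0.29 and -0.36 beside -0.0078 and -0.0016 over all genes. Their mean log2 level by array was 5.90 to 5.97 in WT_MNA, 6.20 to 6.27 in 5_6_MNA, 6.99 to 7.08 in WT_MXA2 and 6.69 to 6.72 in KO_MXA. Nefm, a neurofilament chain, fell in the KO (-0.74) and stood at 0.23 under Dlx5/6 loss (difference 0.97 ± 0.17, adjusted p = 0.00186). Its KO call held in all 12 fits without an array. The other calls were less firm. The Dlx5/6 calls of Sst and Neurod1 were lost in 9 and 4 of the 12 fits, and the KO calls of Neurog1 and Nefl in 4 and 3. Of the 4 crest-derived glia markers tested, 2 values were positive and 2 negative under Dlx5/6 loss, and 1 was positive and 3 negative in the KO. Their medians were 0.16 and -0.39, and none was called in either effect. Whether nerve tissue had a part in the opposite changes was not tested.

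Genes changed alike were 48, with 29 up (1.58% of all genes were called higher for Dlx5/6 loss and 0.639% for the KO) and 19 down (1.58% and 0.617%). Their absolute change was larger under Dlx5/6 loss in 30 and larger in the KO in 18. The difference of the effects was called for 10 of the 48, 7 with the larger change under Dlx5/6 loss and 3, Barx1, Stk26 and Tgfbi, in the KO. The median absolute difference was 0.22 in log2, beside 1.21 for the genes changed in opposite directions. That gap follows from the sorting, since effects of the same sign subtract in the difference and effects of opposite sign add. A missing call for the difference does not show equal effects, so intervals are given with the genes. Other probe sets of these genes numbered 57, of which 54 had the same sign in both effects and 12 were called in both. Of the 13 other probe sets of the genes changed in opposite directions, 11 had the same signs and 3 were called in both.

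The 19 genes that fell in both mutants included Rspo2, Cxcl14 and Shox2. Rspo2, a secreted enhancer of WNT signalling, read 676, 733 and 718 in WT_MNA and 314, 310.0 and 296 in 5_6_MNA. It read 359.8, 362 and 357 in WT_MXA2 and 201, 169 and 195 in KO_MXA. No groups overlapped, and the changes were -1.12 ± 0.087 and -0.84 ± 0.087 (adjusted p = 1.01e-08 and 3.08e-06), with a 95% interval of the difference from -0.54 to -0.030. A second Rspo2 probe set gave -0.054 and 0.46, neither called. Cxcl14, a chemokine, read 354, 309.5 and 319 in WT_MNA and 164, 174 and 163 in 5_6_MNA. Its maxillary signals were 117, 111 and 97.5 in WT_MXA2 and 56.7, 37.3 and 22.3 in KO_MXA, and the changes were -0.83 ± 0.14 and -1.09 ± 0.14 (adjusted p = 0.000591 and 4.34e-05; interval of the difference -0.14 to 0.66). The other Cxcl14 probe set gave -0.76, which was called, and -0.29, which was not (adjusted p = 0.399). The homeobox gene Shox2, a regulator of palate and limb growth, read 269, 222 and 197 in WT_MNA and 122, 111 and 123 in 5_6_MNA. It read 163, 157 and 175 in WT_MXA2 and 112, 103 and 88.1 in KO_MXA, with changes of -0.76 ± 0.11 and -0.61 ± 0.11 (adjusted p = 0.000144 and 0.00389; interval of the difference -0.47 to 0.18). Its other probe set gave -0.36 and -0.39, neither called.

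Further genes down in both were Zmat4, a zinc finger gene (-0.73 and -0.97), the protocadherin gene Pcdh19 (-0.62 and -0.65) and the carbonic anhydrase gene Car14 (-0.38 and -0.48). Capn6, a calpain without protease activity named here after its values were seen, fell in both (-0.93 and -0.43), and the fall was larger under Dlx5/6 loss (difference -0.51 ± 0.084, adjusted p = 0.00123). Barx1, a homeobox gene of the molar field, showed the reverse order. It read 707, 686 and 745 in WT_MXA2 and 91.0, 97.1 and 90.1 in KO_MXA, a change of -2.61 ± 0.088, against 777, 788 and 665 in WT_MNA and 539, 493 and 643 in 5_6_MNA, a change of -0.40 ± 0.088. The difference was 2.21 ± 0.12 (adjusted p = 7.35e-11), while the small Dlx5/6 call was lost without 5_6_MNA replicate 1 or 2 or WT_MNA replicate 1 or 2 (adjusted p from 0.0524 to 0.109).

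The 29 genes that rose in both mutants included Cyp26a1, Itih5 and Crym. Cyp26a1, which breaks down retinoic acid, read 60.02, 74.5 and 70.1 in WT_MNA and 282, 267 and 286 in 5_6_MNA. It read 154, 156 and 139 in WT_MXA2 and 253, 287 and 255 in KO_MXA. Both mutants ended near the same signal from different wild-type levels, a comparison that crosses the array sets. The changes were 1.62 ± 0.095 and 0.70 ± 0.095 (adjusted p = 1.05e-10 and 0.00013), and the rise was larger under Dlx5/6 loss (difference 0.92 ± 0.13, adjusted p = 0.000279). Itih5, a hyaluronan-binding matrix protein, read 84.2, 79.5 and 42.7 in WT_MNA and 280.1, 267 and 253 in 5_6_MNA. Its maxillary signals were 173, 188 and 223 in WT_MXA2 and 367, 334 and 442 in KO_MXA, and it rose by 1.59 ± 0.14 and 0.87 ± 0.14 (adjusted p = 6.44e-08 and 0.000996), with no call for the difference (0.72, adjusted p = 0.0927). Its other probe sets gave 0.90, which was called, and 0.48 under Dlx5/6 loss, with 0.54 and 0.71 in the KO, neither called.

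Crym, a thyroid hormone-binding protein, read 318, 324 and 325 in WT_MNA and 484, 507 and 597 in 5_6_MNA. It read 771, 688 and 823 in WT_MXA2 and 1329, 1599 and 1434 in KO_MXA. The changes were 0.67 ± 0.088 and 0.91 ± 0.088 (adjusted p = 3.79e-05 and 1.42e-06), and the 95% interval of their difference ran from -0.50 to 0.020. Col1a2, a chain of collagen I, rose by 0.80 and 0.52, the kinase scaffold gene Akap12 by 0.83 and 0.70, the cyclin gene Ccnd2 by 0.49 and 0.37, and the chemokine gene Cxcl12 by 0.37 and 0.67. The 2 other probe sets of Cxcl12 had no call for Dlx5/6 loss (0.23 and 0.11). Tmem30b, a flippase subunit gene, was the most unequal of those that rose, at 2.35 and 0.39 (difference 1.96 ± 0.12, adjusted p = 3.56e-10), and its KO call was lost without any 1 KO_MXA array or without WT_MXA2 replicate 1 or 3 (adjusted p from 0.0765 to 0.149).

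A macrophage gene was also among those that rose in both. Csf1r, the receptor that macrophages need, read 123, 111 and 107 in WT_MNA and 181, 188 and 187 in 5_6_MNA. It read 169, 177 and 165 in WT_MXA2 and 261, 259 and 303 in KO_MXA, a change of 0.59 ± 0.094 and 0.59 ± 0.094 (adjusted p = 0.000406 and 0.00106). Its 2 other probe sets were called in neither effect, with 0.51 and 0.18 under Dlx5/6 loss and 0.54 and 0.049 in the KO. Of 10 macrophage markers, 10 values were positive under Dlx5/6 loss and 8 in the KO, with medians of 0.37 and 0.33, but 1, Csf1r, was called for Dlx5/6 loss (1.58% of all genes) and 2, Csf1r and Mrc1, for the KO (0.639%). The KO call of Mrc1 (0.52), a scavenger receptor gene, was lost without any 1 of the 6 maxillary arrays. The mean log2 level of the markers by array was 6.07 to 6.14 in WT_MNA, 6.42 to 6.47 in 5_6_MNA, 6.42 to 6.45 in WT_MXA2 and 6.67 to 6.76 in KO_MXA. Ctsc, a lysosomal protease gene that macrophages also express, rose by 0.63 and 0.64. The part of macrophage number in the genes changed alike was not tested. Of 10 endothelium markers, 10 values were positive in the KO and 6 under Dlx5/6 loss (medians 0.26 and 0.033). The KO called 1 of them higher (0.639% of all genes). Of 9 arch mesoderm and muscle markers, 7 values were negative under Dlx5/6 loss and 7 positive in the KO (medians -0.29 and 0.23). Dlx5/6 loss called 1 lower (1.58%), the KO called 1 higher (0.639%), and the difference was called more negative for 3 (0.754%). The part of these cell types was not tested.

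**Figure D3:**
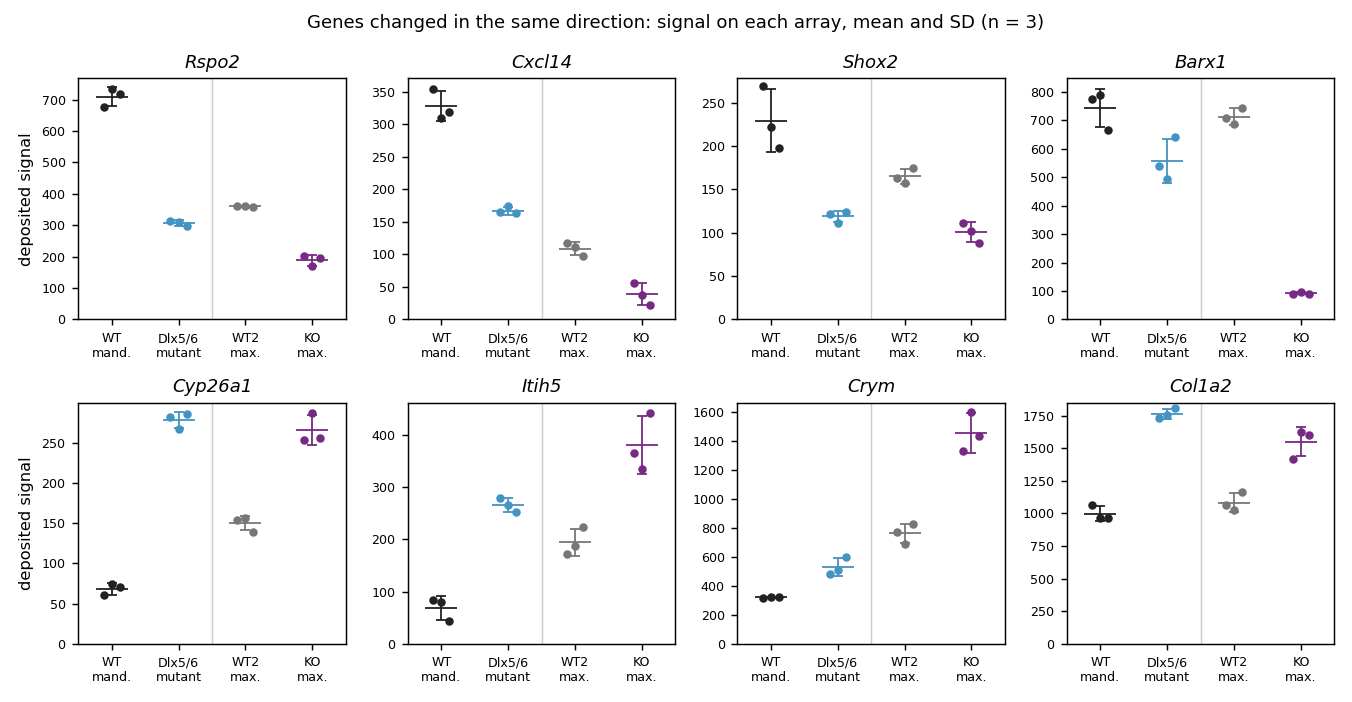
Deposited signal of 8 genes that changed alike, with 1 point per array and the mean and SD of the 3 arrays of each group; the vertical line parts the mandibular from the maxillary groups. The upper row fell in both mutants, Barx1 to 92.7 on average in KO_MXA and to 558 in 5_6_MNA, and the lower row rose in both.

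Genes changed by Dlx5/6 loss only were 119, with 68 lower and 51 higher in the mutant (1.58% of all genes were called in each direction). Here "only" means without a KO call and does not show that the KO left a gene unchanged. The KO value had the opposite sign in 90 of the 119 and the same sign in 29, and a called difference favours opposite signs. For some genes the 95% interval of the KO effect left out 0, as for Cited1 (0.13 to 0.55) and Irx3 (-0.46 to -0.11). The 68 lower genes included 10 of the 13 ventral arch genes tested. Hand2, a bHLH factor of the lower jaw, read 1685, 1702 and 1606 in WT_MNA and 199, 198 and 186 in 5_6_MNA. It read 2.02, 1.79 and 10.9 in WT_MXA2 and 17.3, 9.34 and 3.00 in KO_MXA, both near the bottom of the signal range. The Dlx5/6 effect was -2.90 ± 0.13 (adjusted p = 6.02e-13), the 95% interval of the KO effect ran from -0.11 to 0.42 and the difference was -3.05 ± 0.18 (adjusted p = 1.61e-10). Gsc, the goosecoid homeobox gene, read 194, 203 and 175 in WT_MNA and 22.8, 4.31 and 22.3 in 5_6_MNA, against 43.7, 16.6 and 27.9 in WT_MXA2 and 24.5, 44.7 and 42.9 in KO_MXA. Its Dlx5/6 effect was -2.19 ± 0.19 (adjusted p = 6.04e-08), and the maxillary groups overlapped. The orphan receptor gene Gpr50 (-3.47), the homeobox genes Gbx2 (-2.20) and Pitx1 (-1.85), the cofactor gene Cited1 (-1.47) and the netrin receptor gene Unc5c (-1.17) fell as well. Their KO changes, -0.37, -0.21, 0.22, 0.34 and 0.21, were not called. Gpr50 and Gbx2 averaged 12.05 and 12.8 in WT_MXA2, so a fall of these genes in the KO had little room to show.

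Most of these genes had lower signal in the maxillary control. The median log2 level of the 68 lower genes was 8.36 in WT_MNA and 7.15 in WT_MXA2, 63 of 68 were lower in WT_MXA2 than in WT_MNA, and 8 of 68 lay in WT_MXA2 below the 40th percentile used as the filter on dim probe sets. The array set and the branch cannot be told apart in that contrast of controls, and the same wild-type arrays enter the effects. The ventral arch list and the other lists were drawn up with results of these data known, so their counts describe the members and give no independent support. Over the 13 ventral arch genes tested, 11 were called lower under Dlx5/6 loss (1.58% of all genes), with a median of -1.31. In the KO 1 was called higher (0.639% of all genes), with a median of 0.15. The 1 that rose in the KO was Foxd1, and 11 of the 13 were more negative under Dlx5/6 loss in the test of the difference, against 0.754% of all genes.

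The 51 genes that rose only under Dlx5/6 loss included maxillary transcription factors and secreted modulators. Foxl2, a forkhead factor of the maxillary mesenchyme, read 79.0, 70.2 and 82.3 in WT_MNA and 274, 331 and 309 in 5_6_MNA. It read 338, 352 and 358 in WT_MXA2 and 303, 251 and 296 in KO_MXA. The mutant mandibular arrays stood in the range of the maxillary groups, which are of the other array set. The Dlx5/6 effect was 1.61 ± 0.097 (adjusted p = 1.43e-10), the KO effect -0.27 ± 0.097 (adjusted p = 0.262) and the difference 1.89 ± 0.14 (adjusted p = 4.69e-09). A second Foxl2 probe set was called for Dlx5/6 loss at 0.91, with 0.34 in the KO and a difference of 0.56 that was not called. Its antisense transcript Foxl2os rose by 1.43 (KO -0.29), Irx5 by 1.04 (-0.23) and Irx3 by 0.87 (-0.28), the last pair being Iroquois homeobox genes. Over the 12 maxillary and proximal genes tested, 10 were called higher under Dlx5/6 loss (1.58% of all genes) with a median of 1.04. In the KO 1 was called higher (0.639%) and 3 lower (0.617%) with a median of -0.25, and the difference was called for 9, all more positive under Dlx5/6 loss (0.682%).

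Igf1, an insulin-like growth factor, read 623, 553 and 533 in WT_MNA and 1624, 1383 and 1344 in 5_6_MNA. It read 1381, 1312 and 1675 in WT_MXA2 and 1567, 1648 and 1534 in KO_MXA. The Dlx5/6 effect was 1.31 ± 0.086 (adjusted p = 6.28e-10) and the 95% interval of the KO effect ran from -0.034 to 0.32. Its 3 other probe sets gave Dlx5/6 effects of 1.31, 1.19 and 1.37, all called, and KO effects of 0.19, 0.16 and 0.32, none called. Sfrp2, a secreted WNT antagonist, rose by 1.26 (KO -0.15), Rspo3, a relative of Rspo2, by 1.07 (-0.33) and the neurotrophin gene Bdnf by 0.94 (-0.37). Prap1 read 237, 248 and 235 in 5_6_MNA and 2.23, 1.12 and 2.25 in WT_MNA, with 1.32, 2.93 and 2.09 in WT_MXA2 and 2.37, 1.20 and 1.38 in KO_MXA. It passed the filter on dim probe sets through the 5_6_MNA arrays alone, so no test is given for it.

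Genes changed by the KO only were 41, with 24 lower (0.617% of all genes were called lower) and 17 higher (0.639%). The Dlx5/6 value had the opposite sign in 32 of the 41 and the same sign in 9, and a missing Dlx5/6 call does not show an absent effect. After Dlx2, the largest fall was that of Osr1, a zinc finger factor, by the size of the difference. Osr1 read 144, 167 and 181 in WT_MXA2 and 24.3, 18.7 and 29.6 in KO_MXA, against 193, 222 and 212 in WT_MNA and 171, 212 and 185 in 5_6_MNA. The KO effect was -1.87 ± 0.12 (adjusted p = 2.03e-09), the 95% interval of the Dlx5/6 effect ran from -0.36 to 0.15 and the difference was 1.77 ± 0.18 (adjusted p = 1.16e-06). Emx2, a homeobox gene, read 149, 130.2 and 95.6 in WT_MXA2 and 27.3, 37.7 and 24.8 in KO_MXA, against 169, 141 and 166 in WT_MNA and 117, 101 and 178 in 5_6_MNA, where the groups overlapped. The KO effect was -1.41 (difference 1.19 ± 0.22, adjusted p = 0.00355). Apcdd1, a membrane inhibitor of WNT and BMP signalling, fell in the KO (-0.93; Dlx5/6 0.14; difference 1.08 ± 0.13, adjusted p = 1.87e-05), and 4 of its 5 other probe sets were also called lower in the KO.

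The genes that rose in the KO only included Foxd1, a forkhead factor, which read 256, 309.5 and 326 in WT_MXA2 and 917, 883 and 827 in KO_MXA. In the mandibular branch it read 483, 525 and 506 in WT_MNA and 441, 387 and 412 in 5_6_MNA. The KO effect was 1.46 ± 0.093 (adjusted p = 9.3e-10) and the difference -1.72 ± 0.13 (adjusted p = 1.2e-08), while the lower values of the 5_6_MNA arrays were not called (-0.26, adjusted p = 0.172). Pou3f4, a relative of Pou3f3, rose where Pou3f3 fell: it read 40.5, 46.1 and 34.9 in WT_MXA2 and 201, 150.2 and 254 in KO_MXA. On the mandibular arrays it read 14.8, 15.7 and 11.9 in WT_MNA and 21.4, 27.5 and 17.9 in 5_6_MNA. The KO effect was 1.67 ± 0.16 (adjusted p = 7.69e-07), the difference was -1.46 ± 0.22 (adjusted p = 0.000389), and its other probe set gave 1.69 for the KO, also called. Zic5, a zinc finger factor, rose by 1.41 (Dlx5/6 0.051), the LIM-homeobox gene Lhx2 by 0.74 (-0.29) and the collagen III gene Col3a1 by 0.54 (0.13). The called difference of Col3a1 was lost with values as deposited (adjusted p = 0.0966), with a common median (adjusted p = 0.239) and without the intensity trend (adjusted p = 0.155).

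**Figure D4:**
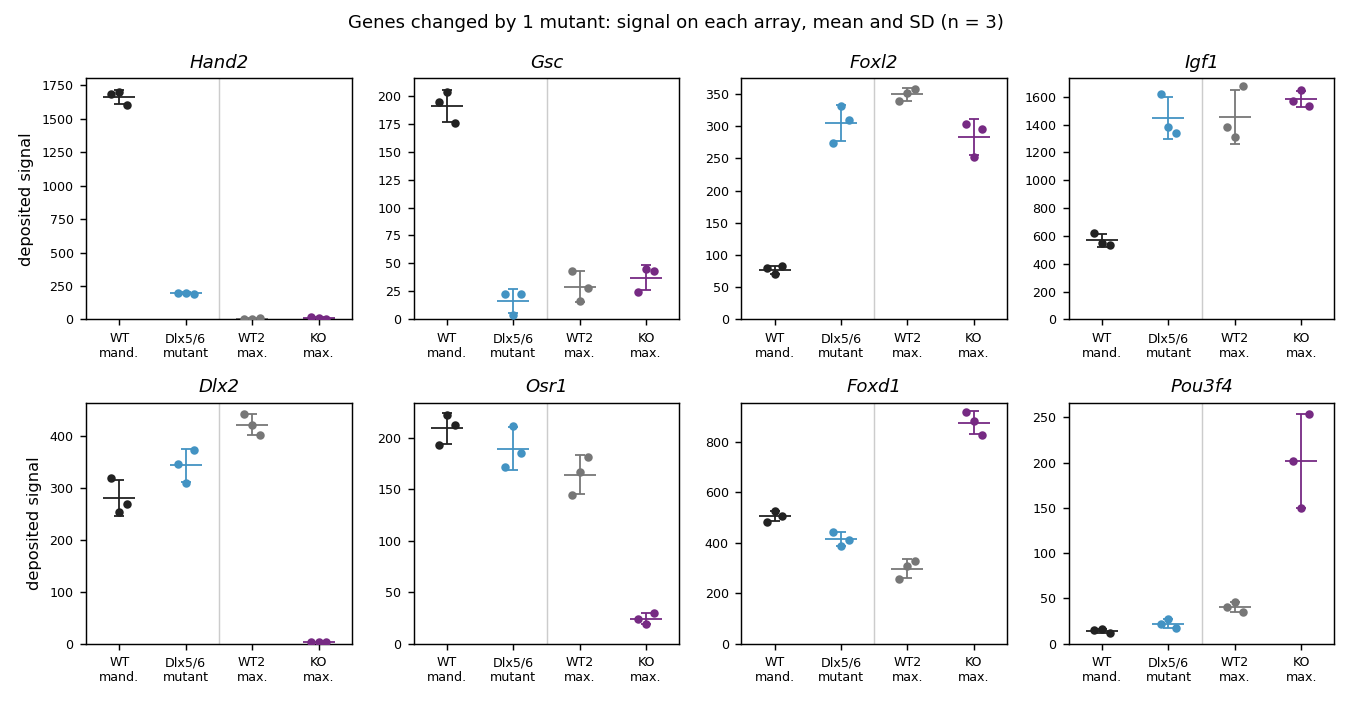
Deposited signal of 8 genes changed by 1 mutant, with 1 point per array and the mean and SD of the 3 arrays of each group; the vertical line parts the mandibular from the maxillary groups. The upper row (Hand2, Gsc, Foxl2, Igf1) changed under Dlx5/6 loss and the lower row (Dlx2, Osr1, Foxd1, Pou3f4) in the KO.

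Of 11 oral axis and tooth mesenchyme genes tested, 2 were called lower in both mutants. Dlx5/6 loss called 2 higher and 5 lower (1.58% of all genes in each direction; median -0.28), and the KO called 6 lower (0.617%; median -0.36). Shox2 and Barx1 fell in both. Pitx1 fell under Dlx5/6 loss alone with the difference called, as described above, and Osr1 and the bHLH gene Sim2 in the KO (-1.11; Dlx5/6 -0.081; difference 1.03, adjusted p = 0.0328). The difference call of Sim2 was lost in 7 of the 12 fits without an array. Lhx6 and Lhx8, LIM-homeobox genes of the oral mesenchyme, parted: Lhx6 went in opposite directions, while Lhx8, named after its values were seen, rose under Dlx5/6 loss (0.60) with -0.17 in the KO (difference 0.77 ± 0.097, adjusted p = 3.34e-05).

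Of 23 WNT pathway genes, 3 rose and 4 fell under Dlx5/6 loss (1.58% of all genes each) and 1 rose and 2 fell in the KO (0.639% and 0.617%), with medians of 0.060 and -0.066. Rspo2 was the WNT gene called in both. Dkk1, a WNT inhibitor, fell under Dlx5/6 loss only (-0.58; KO 0.16; difference -0.74, adjusted p = 0.0132). Of 11 hedgehog pathway genes, the KO called 1 higher (0.639%) and 2 lower (0.617%). The ligand co-receptor genes Gas1 (-0.64) and Cdon (-0.50) fell in it, and both differed from the Dlx5/6 effect (0.38 and 0.24; differences 1.02 and 0.74, adjusted p = 0.000256 and 0.0047). The receptor gene Ptch1 rose in the KO (0.33, adjusted p = 0.00719), with a call lost without KO_MXA replicate 1 (adjusted p = 0.0548). The KO call of Cdon was lost without KO_MXA replicate 1 (adjusted p = 0.0548) or replicate 2 (adjusted p = 0.0533). Without the intensity trend the KO calls of Gas1 (adjusted p = 0.0596), Cdon (adjusted p = 0.0723) and Ptch1 (adjusted p = 0.107) were lost.

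Of 15 BMP pathway genes, 2 fell under Dlx5/6 loss (1.58% of all genes), the inhibitor gene Bambi (-0.78; KO 0.028; difference -0.81, adjusted p = 8.29e-05) and the BMP-binding gene Bmper (-1.17; KO 0.084). The called difference of Bmper (-1.25) was lost without KO_MXA replicate 1 (adjusted p = 0.056). The KO called 1 BMP pathway gene higher (0.639%). In the retinoic acid list, 1 of 11 genes rose and 1 fell under Dlx5/6 loss (1.58% each), and 2 rose and 1 fell in the KO (0.639% and 0.617%). Its fallen member was Aldh1a2, which makes retinoic acid, in both mutants (-0.68 and -0.69), with calls lost in 3 and 7 of the 12 fits without an array. Of 23 axon guidance and ephrin genes, 1 rose and 5 fell under Dlx5/6 loss (1.58% each), with medians of -0.097 and 0.00091 for Dlx5/6 loss and the KO. The medians of the 9 mitotic cell cycle genes were -0.018 and 0.021.

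**Figure D5:**
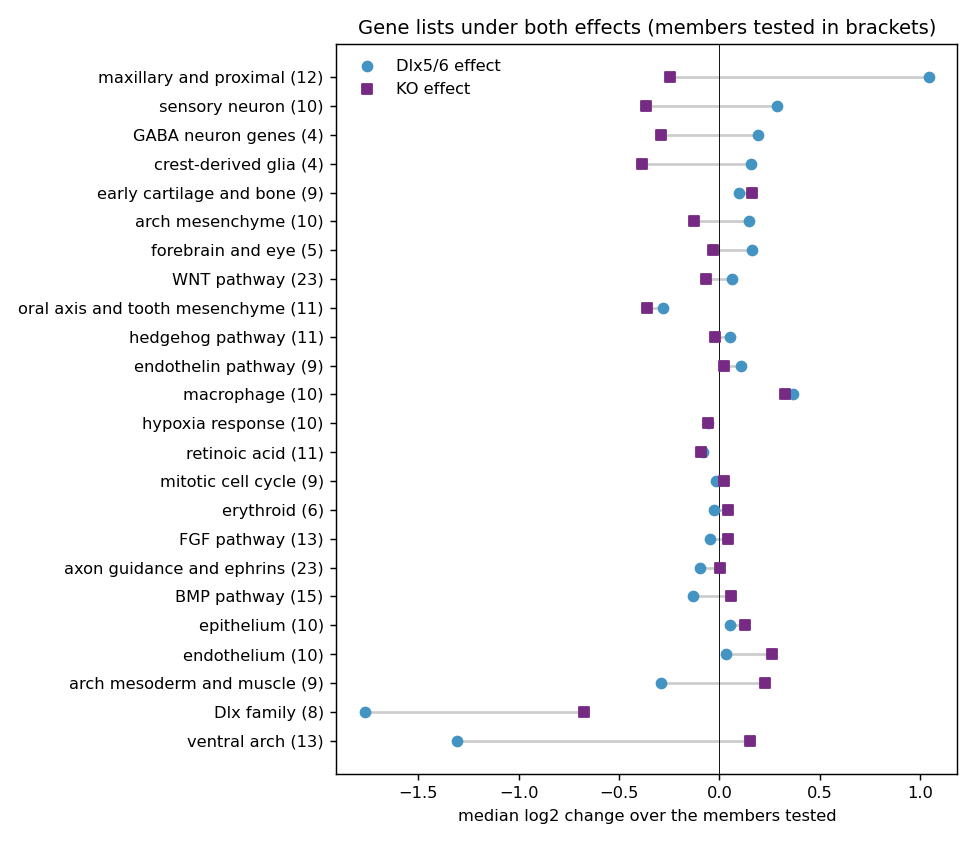
Median log2 change of each gene list under Dlx5/6 loss (circles) and under the KO (squares), with the number of members tested in brackets and a line joining both medians. The lists that lay farthest apart were the ventral arch genes (-1.31 and 0.15), the maxillary and proximal genes (1.04 and -0.25) and the Dlx family (-1.77 and -0.67). The Dlx family holds Dlx5 and Dlx6, which the Dlx5/6 mutant lacks.

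Itm2a, Tbx22 and Amot, of the genes changed in opposite directions, lie on the X chromosome in RefSeq, 3 of 19 genes (15.8%). Among the genes changed alike, 6 of 48 did (12.5%), among those of Dlx5/6 loss only 11 of 119 (9.24%) and among those of the KO only 1 of 41 (2.44%), beside 459 of 13858 genes tested (3.31%). Xist, which coats an inactivated X, fell under Dlx5/6 loss by its brightest probe set, with a change of -1.11 (adjusted p = 1.04e-06), and stood at -0.45 in the KO (adjusted p = 0.0625). The mean signals of that probe set, which is marked as cross-hybridizing, were 658.7 in WT_MNA, 291.8 in 5_6_MNA, 1056 in WT_MXA2 and 749.4 in KO_MXA. The other Xist probe sets changed less under Dlx5/6 loss, by -0.77 (adjusted p = 0.0234) with overlapping groups and by -0.55 (adjusted p = 0.0315). In the KO they stood at -0.27 and -0.28, neither called. The Y-linked gene Kdm5d was higher by 0.24 (adjusted p = 0.38) and 0.68 (adjusted p = 0.00235) by 1 probe set. Its other probe set gave 0.21 and -0.081, neither called. Of the other Y-linked genes, Eif2s3y stood at 0.41 and 0.52 and the Uty probe sets were positive in both effects, with no call. The labels give no sex of the embryos, and the part of embryo sex in the X-linked genes was not tested.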

How the data were processed

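RNA of the first branchial arch was measured on 15 Affymetrix mouse arrays, of which 12 enter the comparison. The deposited values are linear intensity values, 1 per probe set, and were already scaled: the mean trimmed by 2% at each end was 150.0 on every array in the deposited table. The scanner software and summary method are not given in the sources used here, and detection calls were not used. The deposited intensity was turned into log2(value + 32) and quantile normalized. Of 45101 probe sets, 64 controls were left out, and 31643 above the 40th percentile of their array on at least 3 arrays were kept. The number of arrays limits the precision: the median SE was 0.148 for each effect and 0.21 for the difference. A limma fit (limma 3.58.1, R 4.3.3; lmFit, eBayes with intensity trend) used all 15 arrays in 5 groups, with 10 residual degrees of freedom and Benjamini-Hochberg adjustment over the probe sets of each contrast.

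The platform table named 1 gene for 34958 probe sets, several for 932, and 9211 are unnamed here; 34754 matched RefSeq, with no symbol changed. A gene was represented by its brightest kept probe set with 1 symbol, those not marked as cross-hybridizing preferred. Named are the 10 largest genes of each class and direction with groups that did not overlap, the Dlx genes and up to 4 called members of each list. Members and lists were chosen with earlier results of these data known. The fit was tested on simulated data with known changes. Simulated 1.5-fold changes reached their class in 23.5% (Dlx5/6 only), 29.4% (KO only), 43.8% (alike) and 29.4% (opposite) of cases. For 2-fold changes the shares were 64.7%, 68.8%, 82.4% and 82.4%. Of 109 simulated probe sets called for the difference, 6.42% were false. Residuals of arrays with the same replicate number correlated at -0.067 to 0.028 over 18 pairs, so the numbers do not pair the arrays. Alternatives were other scalings, pseudocounts, filters, variance models, a replicate block, thresholds, another wild-type control and leaving out each array.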

Additional observations from a re-analysis of the deposited data

Results flagged for a closer look

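All 19 genes that changed in opposite directions stand out because the same kind of contrast, mutant minus wild type, gave opposite signs in the 2 mutants. The difference was called for all 19. That adds no support of its own, since 2 called effects of opposite sign add up in the difference. The differences of the effects (Dlx5/6 minus KO, in log2) were 2.93 for Pou3f3, 2.64 for Pantr1, 2.51 for Shisa3, 2.46 for Lhx6 and 2.35 for Dlx1. They were 1.66 for Fibin, 1.60 for AI506816, 1.13 for Zfp703, 1.06 for Mpped2 and 0.76 for Hnrnpl. In the other direction they were -1.87 for Tbx22, -1.42 for Itm2a, -1.21 for Cthrc1, -1.18 for Igf2 and -0.997 for Flrt2. The smallest of that direction were -0.90 for Col9a1, -0.78 for Asb4, -0.77 for Amot and -0.65 for Nnat. The mutation, the branch and the array set cannot be told apart in these differences.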

How the results depend on the processing

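Without the intensity trend in the variance model, 219 probe sets were called for the difference, 452 for the Dlx5/6 effect and 172 for the KO effect, and 26 genes changed alike, 12 in opposite directions and 21 in the KO only. At an adjusted p under 0.01 the same counts were 194, 394 and 152 probe sets, with 24 genes alike, 75 of Dlx5/6 loss only and 22 of the KO only. With WT_MXA, which crosses the array sets, as control of the KO arrays, 2246 probe sets were called for the difference and 3310 for the KO effect, with 80 opposite genes and 700 of the KO only. With one array left out, the difference called 261 to 309 probe sets, the Dlx5/6 effect 499 to 810 and the KO effect 175 to 317. The gene counts were then 31 to 44 alike, 16 to 19 opposite, 90 to 111 of Dlx5/6 loss only and 25 to 39 of the KO only.

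Shifting the arrays to a common median left 32.73% of the KO calls higher, against 50.87% in the normalization used. With a replicate block the counts were 333, 779 and 260 probe sets and 44, 18, 113 and 36 genes, and no count moved by over 1.5 times. Of 3197 values of named genes under other settings, 3003 kept direction and call, 190 lost the call and 4 changed sign, all 4 with WT_MXA as control: the KO effect of Col1a2 (-0.21) and Nnat (-0.43) and the difference for Isl1 (0.056) and Nnat (0.11). With an array left out, 2533 of 2766 kept both and 233 lost the call. The causes were not tested. Signals near the bottom of the range limit what a fall can show there.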

Other observations

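A further 11 genes were called for the difference alone, with neither effect called, and all 11 had opposite signs in the effects. Pax3, a paired-box factor of the early neural crest, stood at 0.40 under Dlx5/6 loss and -0.53 in the KO (difference 0.93, adjusted p = 0.0149). Isl1, a LIM-homeobox gene of sensory neurons and arch mesoderm, stood at -0.30 and 0.42 (difference -0.71, adjusted p = 0.0117). Plxdc1 had the largest difference of the 11, 1.23, from 0.60 and -0.63 (adjusted p = 0.00845). The others were Cd9, Fendrr, Mertk, Ppp2r5a, Rgs2, Sec24d, Tmx4 and Zfp729b, and these genes were named after their values were seen, except Isl1.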
